A study of Glycine max with 24 samples.

Results

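ALMT16 and ALMT34 are soybean genes of the aluminum-activated malate transporter family, and each was read by 1 probe set of the array whose only gene symbol is that gene (probe set 11995856 for ALMT16 and probe set 12207297 for ALMT34). They were 2 of the 31107 genes that a probe set with a single symbol represents, and they were chosen by their mean log2 intensity in CD roots, which was lower in low P than in normal P. The plants were soybean (Glycine max) of accessions Chundou, low-P-tolerant and called CD, and Yunhefengwodou, low-P-sensitive and called YH. They spent 10 days in diluted Hoagland solution, in which normal P meant 0.5 mmol/L phosphorus and low P meant 0.005 mmol/L phosphorus. Roots and leaves were taken from both accessions at both P levels, which gave 8 groups of 3 biological replicates and 24 arrays. CD and YH are 2 unmodified accessions, so a difference between them stands for these 2 lines and not for tolerance as a class. In the screen by which the study picked them, KCl took the place of the phosphate salt, so chloride as well as phosphate could differ between the solutions. The values are log2 intensities, and levels are compared only within a probe set, since the probes of different genes differ in brightness.

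Proteins of the ALMT family are anion channels of plant membranes. The first member described, in wheat roots, releases malate that binds toxic aluminum outside the root tip, and in Arabidopsis AtALMT1 does the same under control of the zinc finger factor STOP1. Malate released by AtALMT1 also takes part in the arrest of Arabidopsis root growth on low phosphate, in which iron is bound and moved in the cell wall, and organic acids outside the root free phosphate from iron and aluminum salts. Other Arabidopsis members sit in the vacuole membrane or act in guard cells, so the family name alone does not place ALMT16 or ALMT34 in one membrane.

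Both genes were root genes in both accessions, and within roots both had their lowest level in low P CD. In the roots of CD in normal P, ALMT16 had log2 intensities of 7.09, 7.92 and 8.50, a mean of 7.84 ± 0.712 (SD, n = 3). In low P the same roots gave 4.81, 5.85 and 4.58, a mean of 5.08 ± 0.675 (SD, n = 3). The highest of the low P arrays thus lay under the lowest of the normal P arrays, and the 2 groups did not overlap. The means differed by -2.76 on the log2 scale, a 6.77-fold lower level in low P. The members were chosen for this difference, so it is given as a description with no test. Of all 75990 probe sets, 0.0947% were called lower in low P CD roots, and 0.420% in either direction, at an adjusted p under 0.05 and at least 2-fold.

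ALMT34 followed the same order. Its log2 intensities in CD roots were 5.92, 6.85 and 7.29 in normal P, a mean of 6.69 ± 0.698 (SD, n = 3), and 3.75, 5.34 and 4.09 in low P, a mean of 4.39 ± 0.837 (SD, n = 3). Again no low P array reached the lowest normal P array, and the means differed by -2.30, a 4.92-fold lower level in low P. Replicate 2 was the highest low P array for both genes, and replicate 3 the highest normal P array for both. Between CD root arrays of the same replicate number, ALMT16 differed by -2.28, -2.08 and -3.92 and ALMT34 by -2.17, -1.52 and -3.20. Since the tissue was measured in bulk, fewer cells that express these genes and less RNA in each such cell cannot be told apart.

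The tissue labels were held against marker genes. All 14 probe sets of leaf markers (RBCS1, CAB3, PSAD and photosystem subunits) were higher in every leaf array than in every root array. Their summed linear intensity in CD roots was 4281 to 4817 in normal P and 4374 to 4738 in low P, so it did not separate the P levels. In YH roots it was lower, 2070 to 2757 over both P levels. CASP2, a protein of the Casparian strip in the root endodermis, lay at log2 intensities of 2.91 to 3.36 in normal P and 3.12 to 3.30 in low P CD roots, ranges that overlapped. CASP2 was not higher in every root array than in every leaf array (2.21 to 3.54 in roots and 1.51 to 2.27 in leaves).

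**Figure D1:**
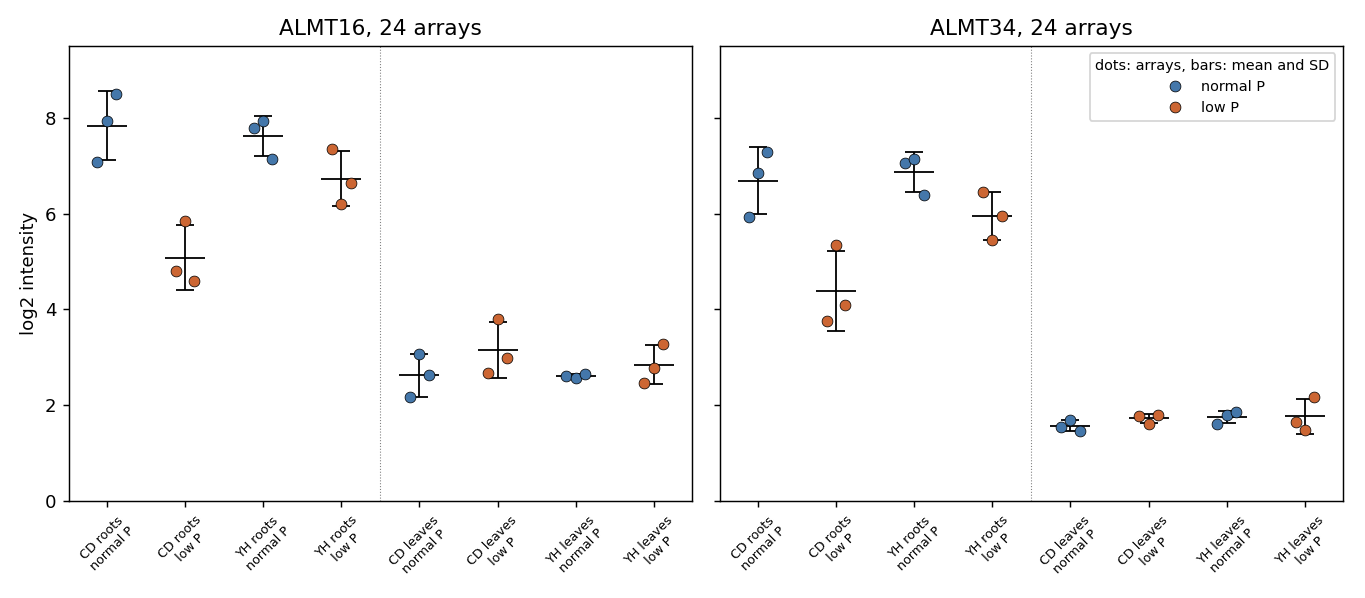
Log2 intensity of ALMT16 (left) and ALMT34 (right) in the 8 groups of accession, tissue and P level, with 1 dot per array and bars for the mean and SD of 3 arrays. For both genes the 3 low P arrays of CD roots lie between the other roots and the leaves, and the ranges of low P and normal P YH roots overlap.

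In the roots of the low-P-sensitive accession YH, both genes also had lower means in low P, but neither was called. ALMT16 had log2 intensities of 7.79, 7.94 and 7.14 in normal P (mean 7.62 ± 0.421, SD, n = 3) and 7.36, 6.21 and 6.63 in low P (mean 6.73 ± 0.583, SD, n = 3). ALMT34 had 7.06, 7.14 and 6.39 in normal P (mean 6.86 ± 0.414, SD, n = 3) and 6.46, 5.45 and 5.94 in low P (mean 5.95 ± 0.504, SD, n = 3). For both genes low P replicate 1 lay above normal P replicate 3, so the groups overlapped. The differences were -0.89 (SE 0.389, 95% interval -1.70 to -0.08) for ALMT16 and -0.92 (SE 0.353, 95% interval -1.65 to -0.18) for ALMT34, and the adjusted p from limma was 0.99998 for both (unadjusted p = 0.0327 and 0.0173). Only 0.00132% of all probe sets were called in this comparison. Within replicate number the low P array was lower in 3 of 3 pairs for each gene, by -0.43, -1.73 and -0.52 for ALMT16 and by -0.61, -1.69 and -0.45 for ALMT34.

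The low P difference in CD roots minus that in YH roots was -1.87 for ALMT16 and -1.38 for ALMT34, which rests on the arrays that chose the genes and is given without a test. In normal P the roots of the 2 accessions lay close together, at a difference (CD minus YH) of 0.21 for ALMT16 and -0.18 for ALMT34. In low P the difference was -1.65 for ALMT16 and -1.56 for ALMT34, and the highest CD array lay below the lowest YH array for both genes. All 4 of these differences are descriptions too.

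The mean of both P levels in CD roots was compared with that in YH roots. This mean is another measure than the difference that chose the genes, but it comes from the same CD root arrays, and for ALMT34 it averages -0.18 in normal P and -1.56 in low P, so it does not show a difference apart from low P. ALMT34 was 1.83-fold lower in CD (log2 difference -0.87, SE 0.250, adjusted p = 0.0220), under the 2-fold that a call required. ALMT16 was 1.65-fold lower (-0.72, SE 0.275, adjusted p = 0.0916). In this comparison 3.07% of all probe sets were called. The adjusted p of ALMT34 was 0.05 or more without 5 of the 12 root arrays in turn (up to 0.0768, at -0.68 without CD roots normal P replicate 1) and when only root arrays were fitted (0.0734). Without CD roots normal P replicate 3 or low P replicate 2 it passed both thresholds instead, at -1.02 (adjusted p = 0.00890) and -1.11 (adjusted p = 0.00164). The leaf marker sum was also higher in every CD root array than in every YH root array, and its part in these differences was not tested.

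In leaves both genes were dim in every group, and no difference between P levels or accessions was called. ALMT16 had log2 intensities of 2.17, 3.06 and 2.63 in CD leaves in normal P (mean 2.62) and 2.66, 3.80 and 2.98 in low P (mean 3.14). In YH leaves it had 2.61, 2.56 and 2.64 in normal P (mean 2.60) and 2.46, 2.78 and 3.28 in low P (mean 2.84). These values lay around the median of all probe sets on an array, 2.83 to 2.91. ALMT34 was at 1.54, 1.70 and 1.46 in CD leaves in normal P (mean 1.57) and at 1.77, 1.61 and 1.79 in low P (mean 1.72). In YH leaves it was at 1.60, 1.79 and 1.85 in normal P (mean 1.75) and at 1.65, 1.47 and 2.17 in low P (mean 1.76). The lower quartile of the arrays was 1.54 to 1.67, so the leaf values of ALMT34 lay near that quartile, and they were not tested against background.

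The low P difference in CD leaves was 0.53 (SE 0.389, 95% interval -0.29 to 1.34) for ALMT16 and 0.15 (SE 0.353, 95% interval -0.58 to 0.89) for ALMT34. In YH leaves it was 0.24 (95% interval -0.57 to 1.05) for ALMT16 and 0.02 (95% interval -0.72 to 0.75) for ALMT34. All 4 adjusted p were at least 0.99, and 0.00395% of all probe sets were called in CD leaves and 0.107% in YH leaves. Both intervals of ALMT16 reach past a 2-fold rise. The responses of CD and YH leaves differed by 0.29 (SE 0.550) for ALMT16 and 0.14 (SE 0.499) for ALMT34, neither called, where 0.0237% of probe sets were called.

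CD and YH leaves were also compared directly. The differences (CD minus YH) for ALMT16 were 0.02 in normal P (95% interval -0.80 to 0.83) and 0.30 in low P (95% interval -0.51 to 1.11). For ALMT34 they were -0.18 in normal P (95% interval -0.92 to 0.56) and -0.04 in low P (95% interval -0.78 to 0.69). None of the 4 was called, whereas 8.22% of all probe sets were called between the accessions in normal P leaves and 6.92% in low P leaves.

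The difference between roots and leaves was larger than the spread between arrays. In YH in normal P, ALMT16 was 32.4-fold higher in roots (log2 difference 5.02, SE 0.389, adjusted p = 1.48e-09) and ALMT34 was 34.7-fold higher (5.12, SE 0.353, adjusted p = 2.30e-10). In low P the differences in YH were 3.89 for ALMT16 (14.8-fold, adjusted p = 6.95e-08) and 4.19 for ALMT34 (18.2-fold, adjusted p = 5.16e-09). Both genes were called higher in roots in a comparison that called 10.3% of all probe sets higher in normal P roots and 9.74% in low P roots (16.9% and 16.7% in either direction). The low P response of YH roots minus that of YH leaves was -1.13 for ALMT16 (SE 0.550, unadjusted p = 0.0531) and -0.93 for ALMT34 (SE 0.499, unadjusted p = 0.0767), not called, with 0.00790% of probe sets called.

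Over both P levels, CD roots exceeded CD leaves by 3.57 for ALMT16 (11.9-fold, SE 0.275, adjusted p = 5.75e-10) and by 3.89 for ALMT34 (14.9-fold, SE 0.250, adjusted p = 2.85e-11), against 8.07% of all probe sets called higher in roots (15.2% in either direction). These means hold the CD root arrays that chose the genes, whereas the YH values do not. At each P level the CD values are descriptions. Roots lay above leaves by 5.22 in normal P and 1.93 in low P for ALMT16, and by 5.12 in normal P and 2.67 in low P for ALMT34. The low P CD root arrays nevertheless remained above all leaf arrays for both genes, and over 12 arrays each the linear intensity of ALMT16 was 23.9 to 363 in roots and 4.52 to 13.9 in leaves, while that of ALMT34 was 13.4 to 156 in roots and 2.76 to 4.49 in leaves.

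**Figure D2:**
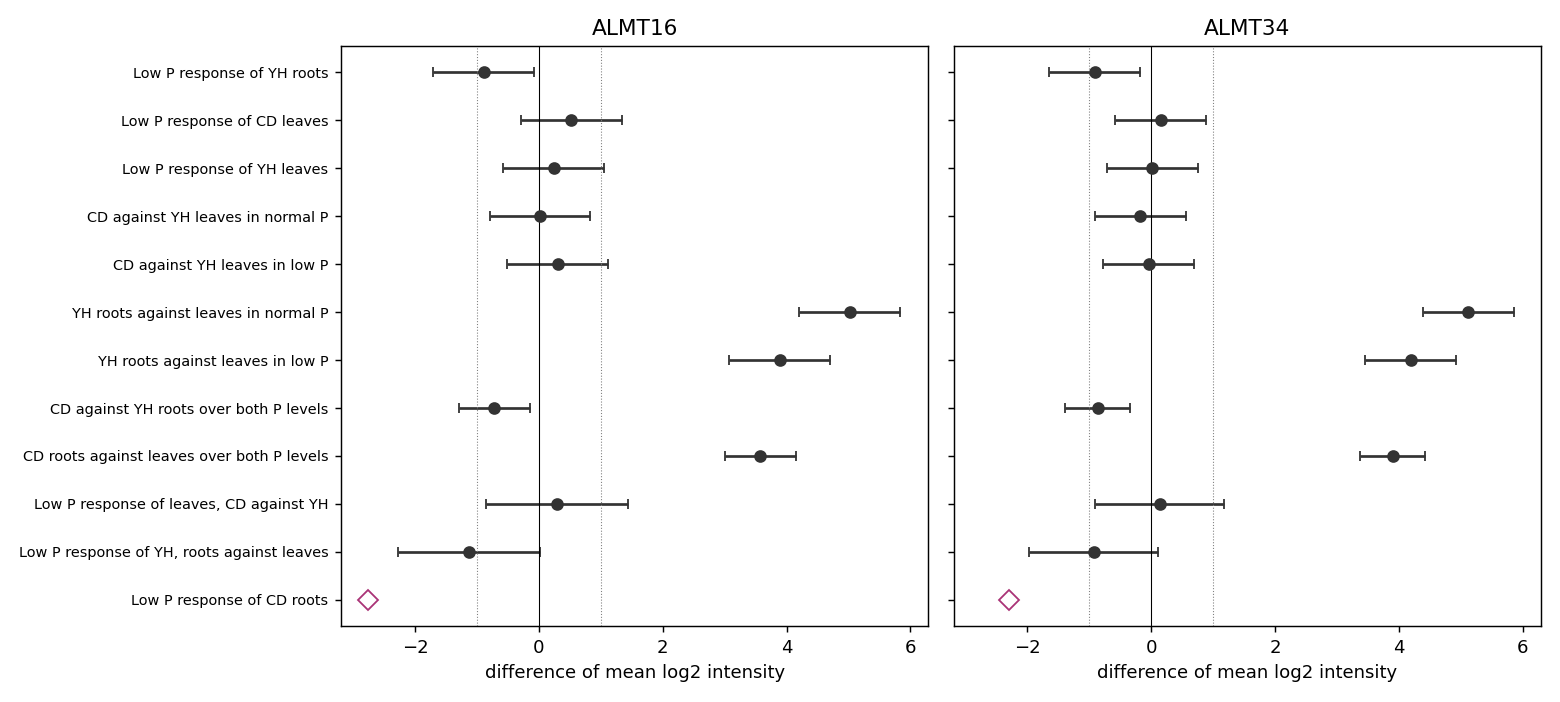
Differences of mean log2 intensity of ALMT16 (left) and ALMT34 (right), with filled dots and 95% intervals for the tested comparisons, an open diamond without an interval for the described one, and dotted lines at a 2-fold difference. The root against leaf differences lie between 3.57 and 5.12 for both genes, whereas the intervals of all leaf comparisons include 0.

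From highest to lowest, ALMT16 was ordered as CD roots in normal P, YH roots in normal P, YH roots in low P, CD roots in low P and then the 4 leaf groups. The first 3 groups overlapped with their neighbours in this order. The gap of 1.65 above low P CD roots and the gap of 1.93 below them were without overlap. In leaves (CD low P, YH low P, CD normal P, YH normal P) neighbouring groups overlapped, while the first and the last did not. For ALMT34 the order was YH roots in normal P, CD roots in normal P, YH roots in low P and CD roots in low P, with leaves below. Its first 3 groups overlapped, the gaps above and below low P CD roots were 1.56 and 2.63, and neighbouring leaf groups overlapped.

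The patterns of the 2 genes were close to each other. Over the 24 arrays Pearson's r between ALMT16 and ALMT34 was 0.989, and each was the most similar of the other 75989 probe sets to the other. Much of that value is the distance between root and leaf arrays, which form separate clusters. Over the 12 root arrays alone r was 0.983, again the highest of all probe sets for both, and over the 12 leaf arrays, where ALMT34 was dim, r was 0.296 and ALMT34 ranked 10680 of 75989 in likeness to ALMT16. With each group's mean taken away, r of the deviations over 24 arrays was 0.801. All 12 root arrays deviated to the same side of their group mean in both genes, against 6 of 12 leaf arrays. Arrays share their RNA extract and hybridisation between the 2 genes, so no p is given. Probe sequences were not used here, and how far the probes of one gene also read the other was not tested.

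**Figure D3:**
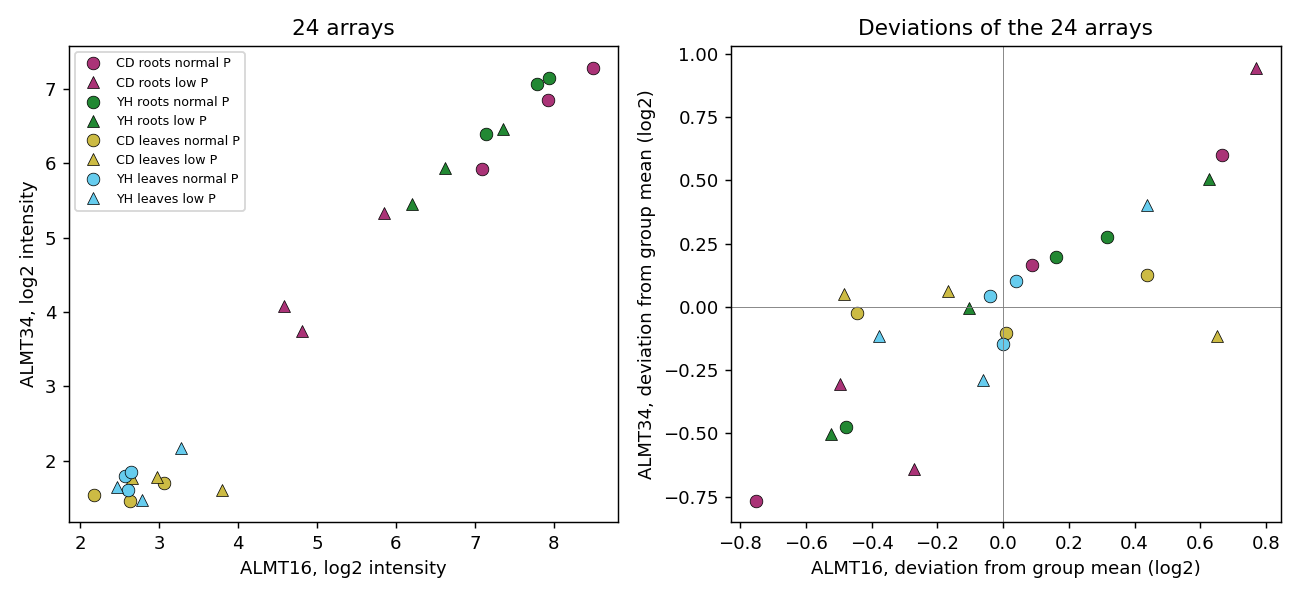
ALMT34 against ALMT16, as log2 intensity on 24 arrays (left) and as deviation from the group mean (right), coloured by accession and tissue, with circles for normal P and triangles for low P. Root arrays fall along a line on which low P CD roots take the lowest place, and the 12 root arrays deviate to the same side in both genes.

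Among probe sets with 1 symbol, the 5 most similar to ALMT16 over the 24 arrays were ALMT34, LOC100819804 (r = 0.978), FRD3b (r = 0.977), LOC100794054 (r = 0.974) and LOC100527430 (r = 0.968). The 5 most similar to ALMT34 were ALMT16, FRD3b (r = 0.984), LOC100811993 (r = 0.982), LOC100777556 (r = 0.980) and LOC100793221 (r = 0.979). FRD3b, the gene close to both, is named after the Arabidopsis citrate transporter FRD3, which loads citrate into the xylem, where it carries iron. The other genes carry only locus names. Likeness over the 12 root arrays kept 1 of the 5 for each gene, namely the other member, while over the 8 group means 3 of the 5 were kept for ALMT16 and 2 for ALMT34.

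These 7 similar genes lay lower in low P CD roots by -1.03 (LOC100527430) to -2.03 (LOC100777556), so none reached the difference of either member. FRD3b differed by -1.38, LOC100811993 by -1.71, LOC100794054 by -1.58, LOC100793221 by -1.41 and LOC100819804 by -1.22. In YH roots the same genes differed by -0.56 (FRD3b) to -0.10 (LOC100777556). Their likeness to the members was measured on the same arrays, so these directions follow from how they were picked.

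The array held single-symbol probe sets for 18 other ALMT genes, and all of them had a smaller low P difference in CD roots than either member. Their differences there ran from -0.45 to 1.24 with a median of 0.02, beside a median of -0.01 over all probe sets. None of the 18 was called in any of the 4 low P comparisons by limma or by SAM. Over all probe sets limma called 0.420% in CD roots, 0.00132% in YH roots, 0.00395% in CD leaves and 0.107% in YH leaves. At such shares the absence of calls among 18 genes does not set the family apart. At an unadjusted p under 0.05 the counts were 1 in CD roots (ALMT29), 1 in CD leaves (ALMT2), 1 in YH leaves (ALMT1) and 0 in YH roots, where 4.03%, 2.57%, 7.71% and 1.54% of all probe sets had such a p. The members were picked for being low in these roots, so their distance from the family is no test.

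ALMT29 had a difference of opposite sign between the accessions. Its log2 intensities in CD roots were 4.04, 3.11 and 2.30 in normal P and 4.82, 4.44 and 3.90 in low P, and in YH roots they were 5.25, 4.17 and 4.80 in normal P and 4.61, 4.42 and 3.05 in low P. The groups overlapped in both accessions. The difference was 1.24 in CD roots (SE 0.379, adjusted p = 0.318) and -0.72 in YH roots (SE 0.379, adjusted p = 0.99998). The 2 responses of ALMT29 differed by 1.95 (SE 0.535, adjusted p = 0.352, with 0.158% of all probe sets called), which was not a call. It was not called under 6 of 7 alternatives either (adjusted p up to 0.898), nor without any of the 12 root arrays in turn. Only with a replicate block was it called (adjusted p = 0.0127). Without CD roots normal P replicate 1, the array in which ALMT29 was highest and ALMT16 and ALMT34 were lowest of their group, ALMT29 was called in CD roots (1.68, adjusted p = 0.0408). It was not called there without any of the other 5 CD root arrays in turn, nor under any of 8 other alternatives.

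The other ALMT genes were compared between tissues as well. In YH in normal P, 2 of the 18 were higher in roots, ALMT29 by 3.63 and ALMT13 by 2.12, a share near the 10.3% of all probe sets, while 4 were lower, ALMT21 by -4.27, ALMT2 by -3.24, ALMT12 by -1.81 and ALMT10 by -1.55. In either direction that was 6 of the 18, against 16.9% of all probe sets. The same 6 genes were called in YH in low P, against 16.7% of all probe sets. There ALMT29 was at 2.77, ALMT13 at 1.997, ALMT21 at -4.43 and ALMT2 at -3.31. In CD over both P levels ALMT29 (2.60) and ALMT13 (2.13) were higher in roots, and ALMT21 (-2.67), ALMT22 (-1.56), ALMT4 (-1.47), ALMT2 (-1.18) and ALMT10 (-1.01) were lower. Of all probe sets 15.2% were called in either direction. ALMT22 was scattered in CD leaves (2.42 to 6.63 in low P) and overlapped CD roots. In YH in normal P its mean was instead higher in roots (4.02) than in leaves (3.39). The call of ALMT10 was lost without 5 of the 12 CD arrays in turn. ALMT11 was not called in any of these 3 comparisons. ALMT13 differed by -0.03 between P levels in CD roots (SE 0.167), so a root gene of the same family had a 95% interval of -0.38 to 0.32 there.

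Levels of the family were then compared between the accessions. In normal P leaves, ALMT2 (-1.81), ALMT21 (-1.27), ALMT12 (-1.02) and ALMT10 (-1.003) were lower in CD and ALMT4 (1.003) was higher, 5 of 18 against 8.22% of all probe sets. In low P leaves ALMT2 (-2.34), ALMT21 (-1.58) and ALMT10 (-1.07) were lower in CD, 3 of 18 against 6.92%. Without YH leaves normal P replicate 1, ALMT2 alone was called in normal P leaves (-1.48, adjusted p = 0.000218). In normal P roots 1 of the 18 was called, ALMT29, which was lower in CD by -1.59 (adjusted p = 0.0117), against 3.01% of all probe sets. This call was lost without CD roots normal P replicate 3 (adjusted p = 0.0860) or YH roots normal P replicate 1 (adjusted p = 0.0738) and in a separate fit (adjusted p = 0.0872). In low P roots limma called 0 of the 18, against 3.39% of all probe sets, and SAM called 1. At an unadjusted p under 0.05 there was 1 (ALMT13), where 18.2% of all probe sets had such a p. In roots over both P levels limma called 0 of the 18 against 3.07%, with 4 at an unadjusted p under 0.05 (ALMT10, ALMT13, ALMT23 and ALMT29) where 26.3% of all probe sets had such a p.

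**Figure D4:**
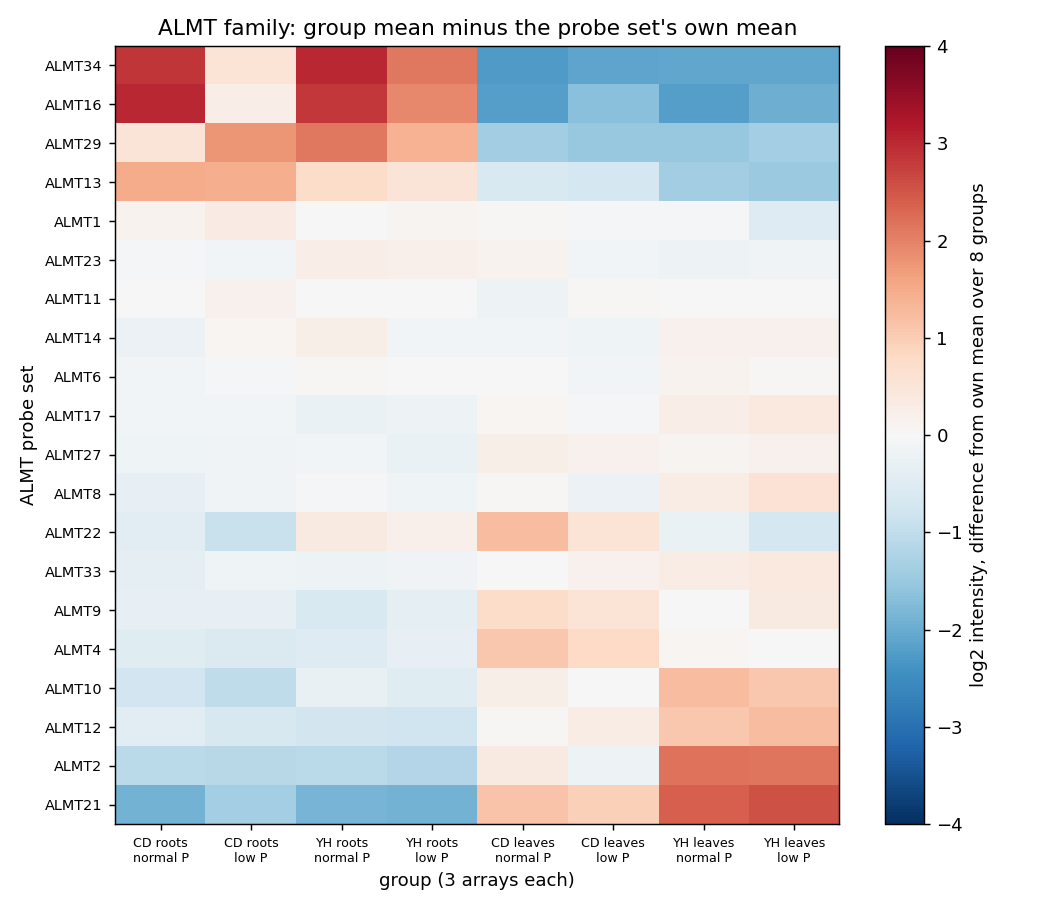
Group mean log2 intensity of the 20 ALMT probe sets minus each probe set's own mean over the 8 groups (columns, 3 arrays each), with red above and blue below that mean and rows ordered by roots minus leaves. ALMT34, ALMT16, ALMT29 and ALMT13 are red in roots, and ALMT16 and ALMT34 are pale only in low P CD roots among the 4 root groups, whereas ALMT21 and ALMT2 are red in YH leaves.

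Enzymes that supply malate were looked at next. Phosphoenolpyruvate carboxylase (PEPC) makes oxaloacetate, which malate dehydrogenase reduces to malate, and PEPC kinase (PPCK) makes PEPC less sensitive to inhibition by malate. Of 10 probe sets for PEPC and its kinase, 1 was lower in low P CD roots, 0 were higher, and their median difference was -0.34. Over all probe sets 0.0947% were called lower, and the median was -0.01. The 1 called was PEPC7. Its log2 intensities in CD roots were 5.85, 6.94 and 7.05 in normal P and 4.98, 5.24 and 4.83 in low P, groups without overlap (difference -1.60, SE 0.345, adjusted p = 0.0351). The call of PEPC7 was lost without 5 of the 6 CD root arrays in turn (adjusted p up to 0.280) and under 3 of 8 other alternatives (adjusted p up to 0.199), and it was kept without normal P replicate 1 (adjusted p = 0.00503).

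PEPC7 was a root gene as well. In YH in normal P PEPC7 was higher in roots by 4.99 (adjusted p = 2.44e-10), and in YH roots it differed by -0.59 between P levels (SE 0.345, adjusted p = 0.99998). Over both P levels PEPC7 in CD roots lay below YH roots by -1.98 (adjusted p = 6.01e-06). PPCK1, the kinase, was instead higher in CD than in YH roots by 1.93 (adjusted p = 2.62e-08). Its low P difference in CD roots was -0.92 (adjusted p = 0.0888), not called, and it was higher in roots than leaves in both CD (3.57) and YH in normal P (1.63). PPC1, another PEPC gene, differed by -0.83 in CD roots (adjusted p = 0.532) and -0.50 in YH roots (adjusted p = 0.99998). MDH-1, the malate dehydrogenase on the list, differed by -0.36 in CD roots (adjusted p = 0.737).

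Citrate transporters and the STOP1 factor completed the comparison of organic acid release. FRD3b, also picked above for its likeness on these arrays, was lower in low P CD roots (-1.38, SE 0.217, adjusted p = 0.00200, and 0.1996 in a separate fit of the CD root arrays). Given that likeness, its lower level there is no separate support for that of the members. In YH roots FRD3b differed by -0.56 (adjusted p = 0.99998), and the difference of these responses was -0.82 (SE 0.307), not called. Its response in CD roots minus that in CD leaves was -1.60 (adjusted p = 0.0395), where 0.121% of all probe sets were called. MATE, of the transporter family that exports citrate, differed by 0.42 in CD roots and by -0.17 in YH roots, neither called. STOP1 differed by 0.03 in CD roots and 0.08 in YH roots, neither called. Of the other lists, read as a check of the treatment, 2 of 6 SPX genes, which bind inositol phosphates as a measure of cell phosphate, were higher in low P CD roots (SPX3 by 1.57 and SPX8 by 1.101), where 0.325% of all probe sets were called higher. The call of SPX8 was lost without 4 of the 6 CD root arrays in turn (adjusted p up to 0.189) and under 3 of 8 other alternatives (adjusted p up to 0.220), whereas that of SPX3 was lost under none of them. None of 19 phosphate transporter probe sets was called there by limma, although PHT1-3 had an adjusted p of 0.0414 below 2-fold (0.86). In YH roots, CD leaves and YH leaves limma called 0 of the 6 SPX genes and 0 of the 19 transporter probe sets. Over all probe sets 0.00132%, 0.00395% and 0.107% were called there, in that order. The check of the treatment thus rests on CD roots alone.

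**Figure D5:**
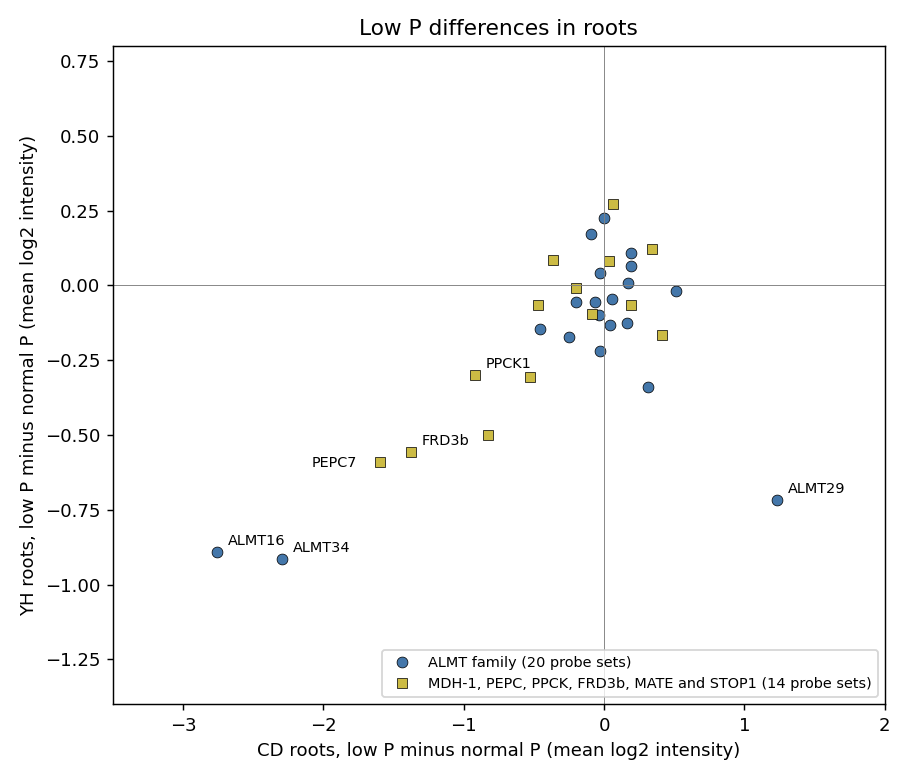
Low P minus normal P difference of mean log2 intensity in CD roots (horizontal axis) and YH roots (vertical axis), with circles for the 20 ALMT probe sets and squares for 14 probe sets of malate supply, citrate transport and STOP1. ALMT16 and ALMT34 lie farthest to the left at -2.76 and -2.30, ALMT29 lies alone at 1.24 in CD roots, and PEPC7, FRD3b and PPCK1 lie between the members and the origin.

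The genes that neighbour ALMT16 and ALMT34 in the RefSeq annotation (assembly Glycine_max_v4.0) were not called in low P CD roots. Of the 3 nearest protein-coding genes on each side of each member, 11 had a probe set, and their low P differences in CD roots ran from -0.37 to 0.14, with an adjusted p of 0.99996 for each. Over all probe sets 0.420% were called there, so the absence of calls among 11 genes does not set these genes apart. In YH roots the same 11 differed by -0.28 to 0.23.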

How the data were processed

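The authors hybridised RNA of 24 samples to Affymetrix Soybean Gene 1.1 ST arrays and deposited 1 linear intensity per probe set and array (75990 probe sets, 0 missing values). Background subtraction, probe summary and RMA normalization are given in the paper, whereas the submitters' notes name MAS5. For RNA the paper names an extraction kit, the labels Trizol. The platform annotation gave 1 symbol to 32405 probe sets, several to 1586 and none to 41999, and 2 ALMT probe sets with several symbols were left out.

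Log2 intensities of all probe sets entered a single linear model of the 24 arrays and 8 group means (limma 3.58.1, R 4.3.3; residual degrees of freedom 16, prior 4.22). Two-sided p values received Benjamini-Hochberg adjustment across the array, and a call required an adjusted p under 0.05 and a fold of at least 2. An exact test of 3 against 3 arrays cannot go below p = 0.1, so calls rest on variance shared between genes, and precision is limited by the number of arrays. SAM, the test of the methods, was an alternative (20 permutations). The fit was tested on simulated data. Figures were drawn with matplotlib.

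The members and lists were chosen with earlier results of these data known. Named were the members, other ALMT genes called in a low P comparison and the 6 brightest of them, the 5 probe sets most similar to each member, and up to 3 genes per list with the smallest p in the low P comparisons. Genes named outside this rule, among them ALMT1, ALMT2, ALMT4, ALMT12 and ALMT23, were chosen after their values were seen. Lists were set by symbol, since no descriptions were given, and malic enzyme, citrate synthase, tonoplast dicarboxylate transporter and plasma membrane H+-ATPase had no entry. Same replicate numbers counted as pairs if their deviations from the group means correlated above 0.1 in all 3 cases, as in CD roots (0.144 to 0.522) and YH roots (0.176 to 0.552) between P levels. The main fit held no replicate term, so its tests were unpaired. A replicate block was an alternative only, and it was run for every comparison whether or not this rule was met.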

Additional observations from a re-analysis of the deposited data

Results flagged for a closer look

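The low P response of 2 genes of the lists differed between roots and leaves of CD by a test of the difference itself (limma interaction term, 0.121% of all probe sets called). For FRD3b the response in roots minus that in leaves was -1.60 on the log2 scale (SE 0.307, adjusted p = 0.0395). This call was lost without 9 of the 12 CD arrays in turn (adjusted p up to 0.144) and under 3 of 7 other alternatives (adjusted p up to 0.229). FRD3b is also among the genes most similar to both members on these arrays, so its test is not independent of their choice. For SPX3 the response in roots minus that in leaves was 1.72 (SE 0.257, adjusted p = 0.00375). For ALMT16 and ALMT34 the same differences rest on the arrays that chose them and were -3.28 and -2.45, without a test. Groups of 3 arrays were too small to look for single outlying arrays.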

How the results depend on the processing

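The tested values of ALMT16 and ALMT34 were recomputed after quantile normalization, median centring, without the dimmest 33.3% of probe sets and with a mean-variance trend. They were also recomputed in separate fits, by SAM, with a replicate block, at an adjusted p under 0.01 and without each array in turn. The counts below also hold the described low P difference in CD roots, after both normalizations and without each CD root array. That difference counted as on the same side if it kept its sign and moved by less than the pooled SD. Of the alternatives other than leaving out an array, only quantile normalization and median centring change the differences themselves. The rest keep every difference, so they could change a call but not a sign. Together these alternatives gave 169 values on the same side and 3 of opposite sign, none of them called. The latter were ALMT16 between CD and YH leaves in normal P (-0.00656 with quantile normalization and -0.0246 with median centring) and ALMT34 between the leaves in low P (0.00113 with quantile normalization). The replicate block changed no call of the members: ALMT34 in YH roots kept -0.92 with an SE of 0.352, and ALMT16 -0.89 with an SE of 0.387.
Leaving out 1 array gave 181 values on the same side, 9 of opposite sign and 2 that became calls. The calls were ALMT34 between CD and YH roots over both P levels (range -1.11 to -0.68), without CD roots normal P replicate 3 or low P replicate 2. The sign turned for leaf differences that were never called: ALMT16 between accessions in normal P (-0.20 to 0.24) and low P (-0.0227 to 0.55) and in the difference of responses (-0.0386 to 0.53), and ALMT34 between accessions in low P (-0.19 to 0.16), in the low P response of YH leaves (-0.19 to 0.16) and in the difference of responses (-0.00663 to 0.34). The described low P difference in CD roots ranged from -3.14 to -2.43 for ALMT16 and from -2.77 to -1.98 for ALMT34. The background moved more: calls in CD roots numbered 319, and 79 to 374 over the other alternatives (175 to 378 without 1 array), and in YH leaves 81, and 1 to 192 (33 to 518). Of the ALMT family, 5 genes called between normal P leaves became 4 to 5 (1 to 5 without 1 array), and 3 in low P leaves became 2 to 3 (2 to 5). Adding LOC100170704, whose RefSeq synonyms are GmALMT1 and GmALMT7, left the family at 0 calls in the low P comparisons. This alternative and the likeness over root arrays and over deviations, which kept 1 of the 5 similar genes for each member, were chosen after seeing the data.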
